A study of Ictidomys tridecemlineatus with 15 samples.

Results

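The cones examined here were the cells that the deposited cell table names Cone at postnatal day 17 (P17) and postnatal day 21 (P21) in retinas of 13LGS, the 13-lined ground squirrel, whose retina is rich in cones. They numbered 1942 cells, 405 at P17 and 1537 at P21, out of 2997 cones and 53394 cells in the whole matrix, and out of 10334 cells in the P17 and P21 libraries. Whole retinas of captive animals were profiled by droplet single-cell RNA sequencing (10x 3′ v3.1), with the day of birth counted as postnatal day 0. Per the study's methods, squirrel samples for single-cell work had been fixed in methanol or flash-frozen and shipped on dry ice. Which of these applied to each library used here is not stated there. There was 1 library at P17, 1 at P21 and 2 at P12 (954 cones), which served as the earlier stage. They are named P12a and P12b here, and which letter is which numbered replicate is not known. The labels give neither the sex of the animals nor how many retinas went into a library, and they name no genotype or treatment other than age. Differences between P17 and P21 therefore have no replicate check, and P17 or P21 as a stage cannot be told apart from the single library that represents it.

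Cones are the photoreceptors of daylight and colour vision. In the membrane discs of the outer segment, light isomerises the chromophore of a cone opsin, the opsin activates cone transducin, and transducin activates a phosphodiesterase that lowers cGMP and closes cation channels, while arrestins and kinases end the response. As a cone matures it builds an outer segment and makes these proteins in large amounts, among them Arr3 (cone arrestin), Gnat2 (the transducin alpha subunit), Gngt2 (its gamma subunit), Pde6h (a phosphodiesterase inhibitory subunit) and the opsins Opn1sw and Opn1mw. The label could not be checked against these markers, because the gene names as held here are not paired with the rows of the matrix. Each gene therefore goes by the number of its matrix row (the top row being 1), and no sequence can be tied to them.

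Cones made up 7.67% of the P17 library (95% Wilson interval 6.99 to 8.42%) and 30.4% of the P21 library (29.1 to 31.7%), beside 13.4% in P12a and 9.71% in P12b. The intervals cover counting error only, and they did not overlap between P17 and P21. The P21 library also held 1 horizontal cell where the P17 library held 192, and 89 rods where P17 held 31. Shares of a library add up to the whole, so the cone share moves with every other type, and with 1 library per age no test between the ages was possible.

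Late cones were of moderate depth. The median cone had 3144 UMIs and 1633 detected genes at P17, and 2362 UMIs and 1296 genes at P21, against 3256 and 5256 UMIs in the cones of P12a and P12b. The P21 cones were the more uniform in depth, with an upper quartile 1.35 times the lower, against 2.38 times at P17. After each cone was thinned to 1500 UMIs, which left out 16 cones at P17 and 122 at P21, the median was 942 genes at P17 and 917 at P21. The gap in detected genes between the ages was thus small at equal depth. Cells with more than 2 times the median UMI count of their library and type, among which doublets would be found, made up 19.0% of P17 cones and 5.47% of P21 cones. Summed over all cones of a library, the counts came to 2658562 UMIs in P12a, 2637223 in P12b, 1750740 at P17 and 3983782 at P21. Of the late cones, 22 had a barcode that also occurs in another library, and P17 and P21 shared 6 barcodes over all their cells.

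A small number of rows took a large share of the cone RNA. The 10 most abundant rows held 12.4% of cone UMIs at P17 and 17.0% at P21, beside 15.2% and 13.3% at P12. Row 17000 came first in each of the 4 libraries, with 9.42% in P12a, 7.76% in P12b, 6.85% at P17 and 8.50% at P21. The first place thus did not change with age, and the level of this row in late cones lay within or close to the range of the P12 cones. Row 17000 was not particular to cones, since its level was higher in Müller glia than in cones at P17 and at P21.

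To describe cone-enriched genes without using the late cones to choose them, rows were taken from P8, where 82 cones of 1 library had a sum of counts. A row entered this cone list with at least 50 CPM (UMIs per 1e+06 UMIs of a sum) in P8 cones and at least 4-fold the CPM of each other P8 type with at least 10 cells. The other types were summed over both P8 libraries. Of the photoreceptor precursors, 157 cells came from the library of these cones and 669 from the other, so the list partly mixes type with library. No P8 sum of rods met that minimum, so the list separates cones from precursors, progenitors and the inner retina, and not from rods. It held 29 rows, all of which were measured in the late cones. In 28 of 29 the highest other P8 type was the photoreceptor precursor.

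As a group, the cone-list rows stood at a median of 217 CPM in P12a, 239 in P12b, 228 at P17 and 443 at P21. P17 lay inside the range of the P12 libraries, and P21 lay above it. Between P17 and P21, 11 of the 29 rows were at least 2-fold higher at P21 and 2 were at least 2-fold lower, with a median ratio of 1.68 and a range from 0.155 to 6.43. Over all rows with at least 20 UMIs over both sums, 9.11% were at least 2-fold higher and 16.2% at least 2-fold lower. Against the mean of the P12 libraries, 12 rows were at least 2-fold higher at P21 and 2 lower (median ratio 1.75), whereas at P17 only 4 were higher and 2 lower (median ratio 1.12). Over all rows, counts were made against each P12 library. At P21, 1080 of 12037 rows were at least 2-fold higher and 2523 lower against P12a, and 1422 of 12302 higher and 3106 lower against P12b. At P17 the counts were 836 and 1290 of 11482 against P12a, and 519 and 1110 of 11675 against P12b.

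**Figure D1:**
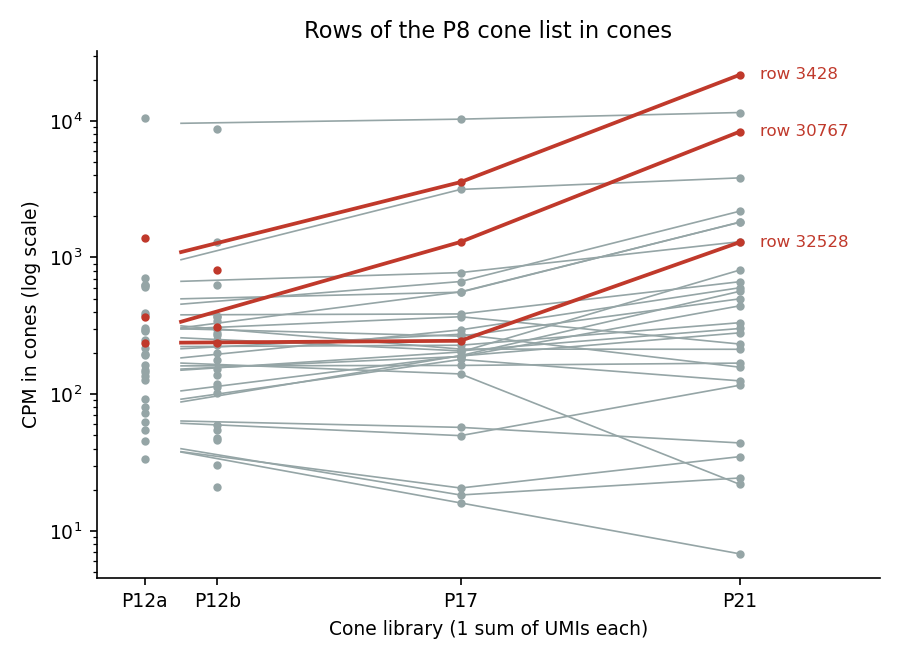
CPM (log axis) of each of the 29 rows of the P8 cone list in the summed cones of P12a, P12b, P17 and P21, 1 point per library, with lines running from the mean of the P12 points. Rows 3428, 30767 and 32528, the rows that also passed an 8-fold minimum at P8, are in red and stand highest at P21, at 21744, 8346 and 1296 CPM.

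The rows most specific to cones at P8 had the largest ratios of P21 to P17 in the list. With an 8-fold minimum in place of 4-fold the list kept 3 rows. Row 3428 stood at 1384 CPM in P12a, 806 in P12b, 3560 at P17 and 21744 at P21. Its level at P21 was 6.11 times that at P17 (95% interval for counting error 5.95 to 6.27), and each late library lay above both P12 libraries. Row 30767 ran from 369 and 309 CPM at P12 to 1299 at P17 and 8346 at P21, a ratio of 6.43 between the late libraries (6.16 to 6.71). Row 32528 behaved differently, since it was level from P12 to P17 (238, 239 and 246 CPM) and reached 1296 CPM at P21, 5.28 times the P17 value (4.78 to 5.84). These 3 rows were singled out by the stricter list, after their values were seen.

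The increase of row 3428 was a shift of nearly the whole cone population. The median P12 cone held 4 UMIs of this row in P12a and 3 in P12b. The median P17 cone held 11 and the median P21 cone 52, although P21 cones were the shallowest. A UMI of the row was present in 80.5% of the cones of either P12 library, in 98.0% of P17 cones and in each of the 1537 P21 cones, of which 1534 had at least 10 UMIs. For row 30767 the median cone went from 1 UMI in both P12 libraries to 3 at P17 and 18 at P21.

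The cone-list rows did not all follow this course. Row 28549, the member with the highest level at P8, stood at 10524 and 8653 CPM at P12, 10283 at P17 and 11500 at P21, so it was already near its late level at P12. Rows 27956, 4062 and 20505, chosen after their values were seen, show the other courses. Row 27956 had made most of its change by P17, with 629 and 1297 CPM at P12, 3146 at P17 and 3825 at P21. Row 4062 had not, with 605 and 306 CPM at P12, 667 at P17 and 2183 at P21. Row 20505 went the other way, from 54.5 and 20.9 CPM at P12 to 16.0 at P17 and 6.78 at P21. Higher levels thus appeared by P17 in some members and after P17 in others.

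Per cell, the cone list made up a median of 1.91% of the UMIs of a P12a cone, 1.57% of a P12b cone, 2.39% of a P17 cone and 5.94% of a P21 cone. The middle 90% of P21 cones (4.34 to 7.75%) lay wholly above that of P17 cones (1.59 to 3.58%). In the P12 libraries rods were close to cones, with medians of 1.83% in P12a and 1.57% in P12b. Late rods carried the same rows at lower shares than late cones, with medians of 1.72% at P17 and 2.82% at P21. Amacrine cells had medians of 0.0416% and 0.158%. Their share was also higher at P21 than at P17, in cells that should lack cone transcripts.

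**Figure D2:**
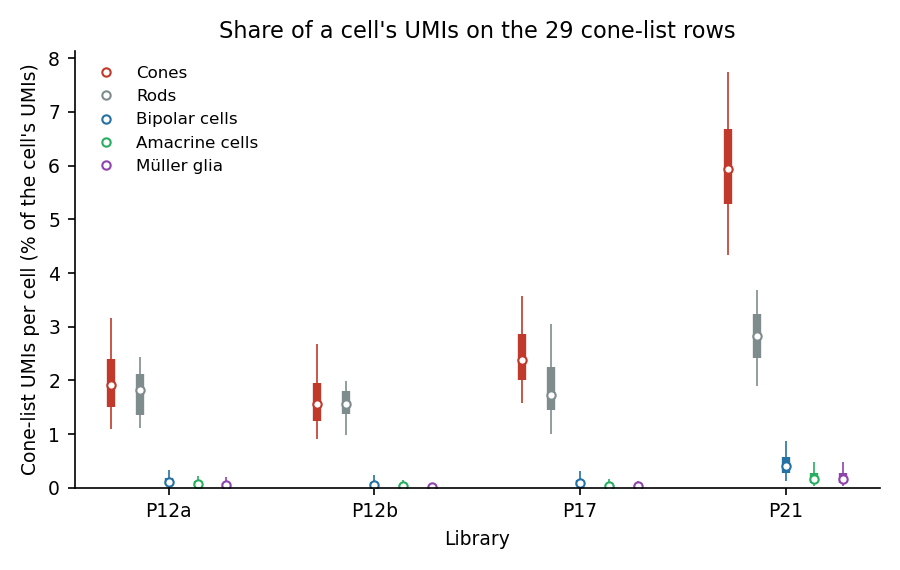
Percent of each cell's UMIs that fell on the 29 rows of the cone list, by cell type and library. Circles are medians over cells, thick bars the middle 50% and thin bars the middle 90% of cells. The P21 cones (median 5.94%) stand above the P17 cones (2.39%), with rods lower than cones at these ages and bipolar cells, amacrine cells and Müller glia near 0.

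RNA free in the suspension can give UMIs of cone genes in other cells, and it was not measured here. The values in other types are therefore set beside those in cones. Row 3428 was present in 78.6% of P21 amacrine cells, whose median depth of 2457.5 UMIs was close to that of P21 cones, and in 12.02% of P17 amacrine cells (median depth 2981.5 UMIs). Its CPM in amacrine cells was nonetheless only 1.01% of the cone level at P17 and 2.14% at P21. In bipolar cells, amacrine cells, Müller glia and ganglion cells of the P21 library, the ratio of row 27062, a row that was high in rods, to row 3428 was nearly the same, at 0.125, 0.120, 0.121 and 0.111. It was 0.0118 in cones and 26.8 in rods. At P17, where the counts were lower, the same ratio was 0.139, 0.25, 0.176 and 0.211 in these 4 types, 0.0818 in cones and 17.3 in rods. The level of row 3428 in cones lay far above that in the other types at both ages, and the part of free RNA in the other types was not tested.

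The first comparison asked which genes differ between late and earlier cones. UMI counts were summed over the cones of each library, because cells of 1 library are not replicates, and the P17 and P21 sums were tested against the P12 sums with edgeR's quasi-likelihood test. Of 12231 rows that passed the filter on low counts, 3 had a Benjamini-Hochberg adjusted p below 0.05, which is the threshold for a call (0.0245% of the rows tested), 2 of them higher (0.0164%) and 1 lower (0.00818%) in late cones. At an unadjusted p under 0.05 there were 1249. Of the 29 cone-list rows, all of them tested, none was called. The cone list's median log2 change was 0.70, where the median over all rows tested was 0.00. These positions were compared with library sizes scaled by TMM factors (trimmed mean of M-values), unlike the CPM printed here. On that scale both late libraries lay above both P12 libraries in 15 of the 29 and below them in 3. The shares over all rows tested were 20.7% and 21.6%.

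The called rows were low in 1 stage and higher in the other. The 2 rows higher in late cones had a UMI in a minority of them. For row 17804 these were 34.3% of P17 cones and 17.8% of P21 cones, and for row 33363 36.5% and 20.1%. Row 17804 stood at 2.63 and 5.31 CPM at P12, 161 at P17 and 102 at P21 (log2 change 5.19, SE 0.51, edgeR adjusted p = 0.0298). Row 33363 stood at 9.03 and 8.72 CPM at P12, 158 at P17 and 119 at P21 (log2 change 4.14, SE 0.39, edgeR adjusted p = 0.0298). Both rows rose, and the late libraries did not overlap with the earlier ones. Row 26625 fell, from 75.2 and 104 CPM at P12 to 2.28 at P17 and 2.01 at P21 (log2 change -5.17, SE 0.49, edgeR adjusted p = 0.0298), where the late values rest on 4 and 8 UMIs.

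The rise of rows 17804 and 33363 was not particular to cones. In bipolar cells of the same 4 libraries row 17804 stood at 3.4, 7.0, 190 and 147 CPM, and in Müller glia at 1.9, 7.6, 109 and 104 CPM. Row 33363 moved likewise in bipolar cells, with 15.8, 12.2, 195 and 171 CPM. Row 26625 was higher in P12 cones than in the P12 cells of each other type compared (24.9 and 22.1 CPM in bipolar cells, 6.3 and 3.7 CPM in amacrine cells), and it was low in all of them at P21. Rises shared by all cell types of a library move with the library as well as with age, and the part of each was not tested.

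**Figure D3:**
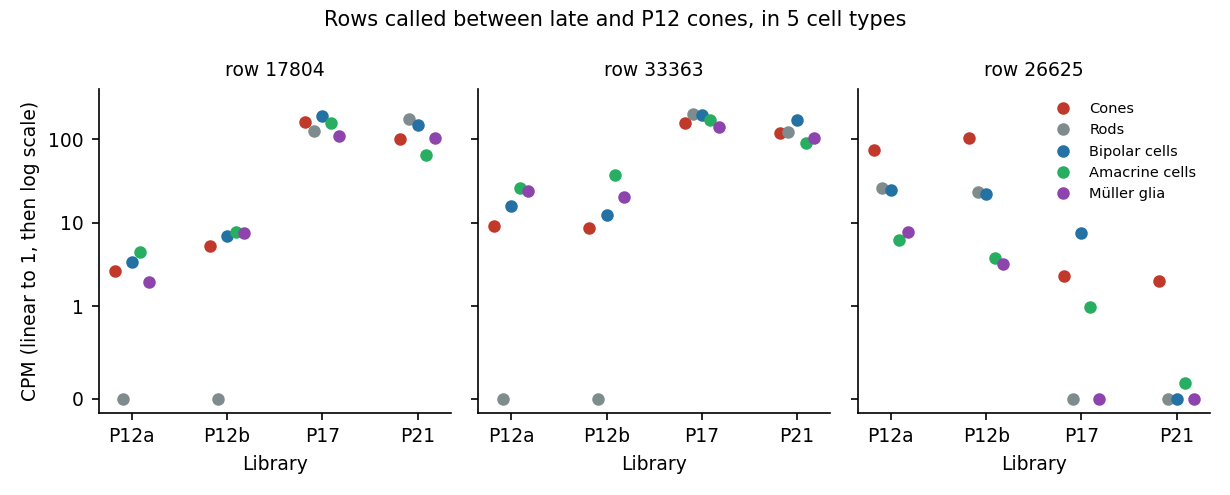
CPM (linear up to 1, then log scale) of the 3 rows called between late and P12 cones, in cones, rods, bipolar cells, amacrine cells and Müller glia of each library, 1 point per sum. Rows 17804 and 33363 stand higher at P17 and P21 in each of the 5 types, and row 26625 is highest in P12 cones, at 75.2 and 104 CPM.

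The number of calls depended on how the late libraries were combined. The P21 cones tested alone against the P12 cones gave 1707 calls of 13208 rows (12.9%), 923 higher (6.99%) and 784 lower (5.94%), and the P17 cones tested alone gave 94 of 13200 (0.712%), 58 higher (0.439%) and 36 lower (0.273%). These fits share the P12 libraries, and each assumes that a lone late library varies as the P12 pair does. DESeq2 gave 634 calls for P21, and edgeR without the filter on low counts gave 0, with 2593 rows at an unadjusted p under 0.05.

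At P21 alone the cone-list rows had a median log2 change of 1.14, beside -0.04 over all rows tested. In lists made in the same way for other P8 types it ran from -1.68 (bipolar cells) to 0.56 (ganglion cells). With the 8-fold minimum it was 4.65 in the cone list and 2.02 in the ganglion cell list, so rises were not confined to the cone list. At P17 alone, 1 row of the cone list stood out. That row was 30767 (log2 change 2.02, edgeR adjusted p = 0.0189). Row 3428 was called higher at P21 (log2 change 4.65 by edgeR) and missed the threshold at P17 (log2 change 1.79, edgeR adjusted p = 0.164). In the joint comparison, where the spread between P17 and P21 counts as error, it had a log2 change of 3.82 with an SE of 0.94 (edgeR adjusted p = 0.388).

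Among the rows called at P21 whose libraries did not overlap and that had at least 50 CPM in the higher group, the largest rises were those of rows 20945 and 15883. Row 20945 was at 1.13 and 1.52 CPM at P12, 9.14 at P17 and 294 at P21 (log2 change 8.09, SE 0.57). It was also higher at P21 than at P12 in rods, bipolar cells and amacrine cells, but stood at 2.2 CPM in P21 Müller glia. Row 15883 stood at 22.6 and 15.5 CPM at P12, 54.8 at P17 and 2082 at P21 (log2 change 7.11, SE 0.62). Outside the photoreceptors it stayed at or below 50.6 CPM, and in rods it reached 3470 CPM at P21. It was therefore a row of both photoreceptor types, and its largest step in cones fell between P17 and P21.

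By the same criteria the largest falls at P21 were those of rows 3366 and 16375. Row 16375 went from 132 and 64.5 CPM at P12 through 33.1 at P17 to 1.51 at P21 (log2 change -5.65, SE 0.66), while bipolar cells still held 54.2 CPM and amacrine cells 66.0 CPM of it at P21. Row 3366 stood at 7.52 CPM in P12a, 1410 in P12b, 575 at P17 and 7.03 at P21. The P12 libraries differed more than the stages did, and the same split ran through bipolar and amacrine cells (4.0 and 7.8 CPM in P12a, 1283 and 1362 in P12b). It was called lower by edgeR at P21, and not by DESeq2 (adjusted p = 0.37). In the P17 fit the rows with the largest changes were rows 17804 and 33363 among the higher and rows 26625 and 26239 among the lower. Row 26239 had 67.3 and 34.9 CPM at P12, 8.57 at P17 and 7.03 at P21 (log2 change -2.48, SE 0.58). It was higher in bipolar cells (274, 158, 88.8 and 173 CPM in P12a, P12b, P17 and P21) and amacrine cells (557, 285, 157 and 391 CPM). In both of these types it was also lower at P17 than in either P12 library.

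The next comparison set P21 cones beside P17 cones. Of 11404 rows with at least 20 UMIs over both sums, 1039 were at least 2-fold higher at P21 (9.11%) and 1851 at least 2-fold lower (16.2%), together 25.3%. The same count between the P12 cone libraries was 14.7%. Among rows that averaged at least 50 CPM, 17.5% differed at least 2-fold between the late cones and 8.14% between the P12 cones. Between the P17 and P21 libraries, 20.6% of rows passed 2-fold in bipolar cells and 21.9% in amacrine cells. P17 cones differed at least 2-fold from P12a cones in 18.5% of rows and from P12b cones in 14.0%, and P21 cones in 29.9% and 36.8%. The pairs that include the P21 cones thus had the highest shares among the cone pairs, as counts and without a test, while P17 cones lay as close to P12b cones as the P12 libraries lay to each other. The median row had a log2 ratio of -0.14 of P21 to P17 on the CPM scale. When the library sizes were multiplied by the TMM factors (trimmed mean of M-values), 1556 rows were higher and 1322 lower, so the split between directions turned with the scaling (36.0% of these rows were higher at P21 without it and 54.1% with it).

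The largest differences were over 40-fold. Row 33880 had 6.85 CPM at P17 and 283 at P21, a ratio of 41.3 (counting interval 23.6 to 80.2), with 15.8 and 11.8 CPM in P12 cones and no more than 17.7 CPM in bipolar cells, amacrine cells, rods or Müller glia of either late library. Row 8068 had 3 UMIs at P17 and 303 at P21, a ratio of 44.4 (15.04 to 216). Both rows were at about the same low level in P12 and P17 cones and were higher in P21 cones alone among the 4 cone libraries. Row 1551 ran the other way, with 131 CPM at P17 and 2.26 at P21, a P17 level 58.2 times that at P21 (30.1 to 129), and 26.3 and 41.3 CPM in P12 cones. Row 3366, described above, was 81.8 times higher at P17 (56.2 to 124). In bipolar cells rows 1551 and 3366 were also lower at P21 than at P17 (2.6 against 101 CPM and 19.9 against 624 CPM), so these falls were shared by the library.

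**Figure D4:**
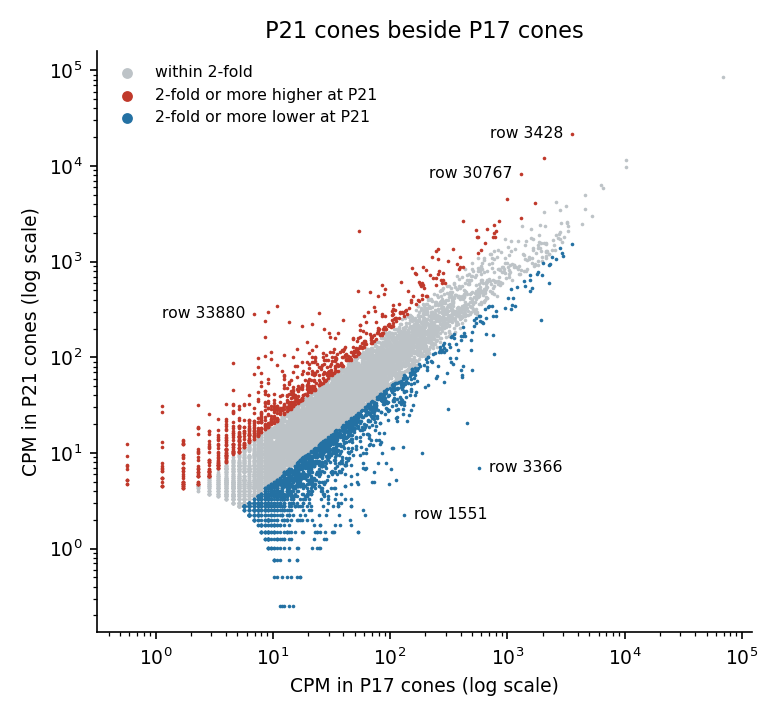
CPM in P21 cones against CPM in P17 cones (log axes), 1 point per row with at least 20 UMIs over both sums that also entered the test against P12 cones and had a UMI in both. Rows 3428, 30767 and 33880 lie among those at least 2-fold higher at P21 (red), and rows 3366 and 1551 among those at least 2-fold lower (blue).

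It was then asked whether changes with age in cones differed from those in other neurons of the same libraries, which removes shifts common to a library. The interaction of cell type with age group was fitted with edgeR, with the library as a block. Against bipolar cells 7 of 14011 rows were called (0.05%), 3 with a more positive and 4 with a more negative change in cones, and 1542 were under an unadjusted p of 0.05. Against amacrine cells edgeR called none of 15402 rows, with 1648 at an unadjusted p under 0.05 and 1 called row once cells of high UMI count were left out. These counts rose to 2270 and 2917 without the P17 library and to 276 and 98 without the P21 library, and against bipolar cells they went to 0 without either P12 library, with 655 rows (without P12a) and 637 (without P12b) at an unadjusted p under 0.05.

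Row 31191 had the largest difference. In cones it stood at 219 and 266 CPM at P12, 133 at P17 and 44.2 at P21. In bipolar cells it stood at 41.7 and 52.4 CPM at P12, 1.44 at P17 and 0.327 at P21, the last 2 values resting on 8 UMIs and 1 UMI. Cones thus kept more of it while both types were lower late, and the difference in log2 change was 4.32 (SE 0.30, edgeR adjusted p = 0.00929). Row 9802 was level in cones on average, with 172 and 218 CPM at P12, 268 at P17 and 120 at P21, while bipolar cells went from 75.6 and 92.8 CPM to 32.3 and 13.4 CPM (difference 2.05, SE 0.20, edgeR adjusted p = 0.0358).

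Rows 20050 and 11800 diverged in the other direction. Row 20050 stood at 34.2 and 37.5 CPM in P12 cones and at 23.4 and 20.3 CPM in late cones, whereas in bipolar cells it went from 42.7 and 43.9 CPM to 130 and 151 CPM (difference -2.25, SE 0.23, edgeR adjusted p = 0.0375). Row 11800 stood at 63.2 and 117 CPM in P12 cones, 35.4 at P17 and 34.1 at P21, while bipolar cells had 57.4 and 80.1 CPM at P12 and 130 and 149 CPM late (difference -2.19, SE 0.23, edgeR adjusted p = 0.0389). In both rows the cell types were close to each other at P12 and several-fold apart at P17 and P21. Row 23024, a member of the cone list, was also called, with a smaller proportional difference between the ages in cones (382 and 229 CPM to 560 and 1811 CPM) than in bipolar cells (28.6 and 15.3 CPM to 146 and 545 CPM).

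**Figure D5:**
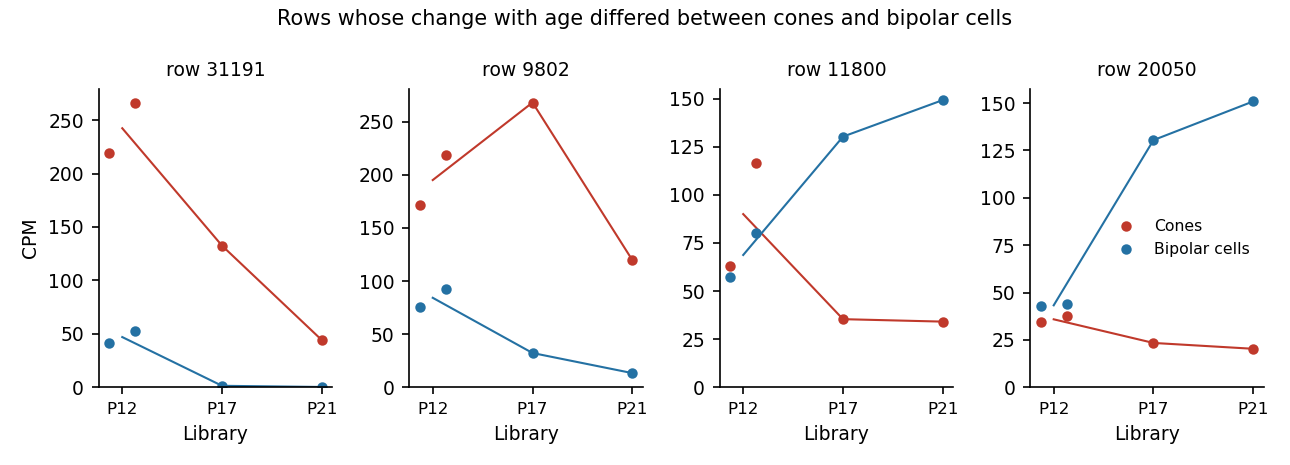
CPM of 4 rows whose change with age differed between cones (red) and bipolar cells (blue), 1 point per library and lines from the mean of the P12 points. Row 31191 stays above bipolar cells in cones (44.2 against 0.327 CPM at P21), and rows 11800 and 20050 separate at P17 and P21, with bipolar cells near 130 and 150 CPM.

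Rods, the photoreceptors of dim light, share much of their gene programme with cones, and only 31 rods at P17 and 89 at P21 were annotated. The annotation was made from the same cells' genes, so cones beside rods is a description with no test. Of 3096 rows with at least 50 CPM in cones or rods of each library, 70 were at least 2-fold higher in cones and 76 at least 2-fold lower in both libraries. Row 4503 stood at 557 CPM in P17 cones and 1815 in P21 cones, against 25.3 and 61.0 CPM in rods (2 and 10 UMIs). Row 29759 stood at 2596 and 4235 CPM in cones, against 215 and 159 CPM in rods (17 and 26 UMIs). In the rod direction, row 8920 had 2 UMIs in the cones of each late library and 291 and 1903 CPM in rods, and row 13577 stood at 26.8 and 18.6 CPM in cones and 1887 and 7050 CPM in rods. Its level in rods was higher at P21 than at P17, and that in cones was not.

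The cone list itself only in part set cones apart from rods. At P21, 9 of its 29 rows were at least 2-fold higher in cones than in rods and 4 at least 2-fold lower, with a median ratio of 1.54. Of the 3657 rows with at least 50 CPM in cones or rods at P21, 270 were at least 2-fold higher in cones and 278 at least 2-fold lower. Row 28549 was at 11500 CPM in P21 cones and 11965 in P21 rods. Row 30767 was at 8346 and 5422 CPM, and row 3428 at 21744 and 970 CPM. Row 3428 thus set late cones apart from rods, whereas rows 28549 and 30767 were shared.

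Beside bipolar cells, the other large class, 259 of 3300 rows were at least 2-fold higher in cones of both late libraries and 310 at least 2-fold lower. Row 30961, also a cone-list member, stood at 214 CPM in P17 cones and 213 in P21 cones, where bipolar cells had 2 and 4 UMIs, and row 29830 at 174 and 138 CPM, where bipolar cells had 3 UMIs in each library. Both were present at similar levels in rods. In the bipolar direction, row 27915 stood at 1.71 and 1.26 CPM in cones and 156 and 106 CPM in bipolar cells, and row 12285 had 3 UMIs and 1 UMI in cones and 99.4 and 68.6 CPM in bipolar cells. These rows were chosen for the largest ratios held in both late libraries, so their separation of the classes at both ages follows from the choice.

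Lists of the other P8 types were followed in late cones in the same way. Of the 8 rows of the bipolar list, all tested, 7 had both late cone libraries below both P12 libraries on the TMM scale, where 21.6% of all rows did. None was called in the joint comparison. Over all rows tested the median log2 change was -0.04 both at P17 alone and at P21 alone. For the bipolar list rows it was -1.74 and -1.68. Their median was 39.1 and 29.2 CPM in P12 cones, 11.99 at P17 and 9.92 at P21, so bipolar-enriched transcripts were lower in the later cones. The amacrine list (11 rows, 8 tested) had a median of 11.3 and 2.28 CPM at P12, 7.43 at P17 and 4.52 at P21. The Müller glia list (7 rows, 5 tested), the ganglion cell list (111 rows, 75 tested) and the horizontal cell list (61 rows, 32 tested) had medians under 10 CPM in each cone library. None of these rows was called in the joint comparison. At P21 alone the median log2 change was 0.56 in the ganglion cell list and -1.44 in the horizontal cell list. It was 0.08 in the amacrine list and 0.54 in the Müller glia list, beside -0.04 over all rows tested. In the joint comparison 28 of the 75 ganglion cell list rows tested had both late libraries above both P12 libraries on the TMM scale. Of all rows, 20.7% did, and only rows that passed the filter on low counts enter these numbers. With the 8-fold minimum, the ganglion cell list had a median log2 change of 2.02 at P21 alone. Positive median changes at P21 were thus also found in lists of other types, among them the ganglion cell list. The part of these lists in the other results was not tested. No row met the criteria for late primary progenitors, late neurogenic progenitors or photoreceptor precursors.

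Among cones of 1 age, a few rows varied far more than counting error. Rows were ranked by the variance of their Pearson residuals, which is near 1 for a row that varies as counts do. Of the 20 most variable rows at P17, 11 were among the 100 most variable at P21. By summed level at P17, 5 of the 20 were highest in cones, 6 in rods and 9 in other types. Row 13745 ranked 1 at P17 (variance 8.77) and 5 at P21 (3.28), and row 27062 ranked 2 at both ages (6.80 and 5.15). Row 17000, the most abundant row in cones, ranked 5 at P17 (4.58) and 1 at P21 (7.19). Rows 17804 and 33363, called between late and P12 cones, ranked 9 and 10 at P17 and 7 and 6 at P21.

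Row 13745 was found in a minority of cones. It had a UMI in 7.41% of P17 cones and 2.28% of P21 cones, and 9 and 3 cones had at least 10 UMIs, as did 15 and 24 cones of P12a and P12b. At P17 these 9 cones held 87.4% of the row's cone UMIs, and they were deep, with a median of 13199 UMIs against 3144 for all P17 cones. The share with a UMI in amacrine cells was 5.18% at P17 and 2.25% at P21, so the share in P21 cones was close to that in a type that should lack cone transcripts. In the sums it stood at 137 and 201 CPM in P12 cones, 141 at P17 and 21.8 at P21, and it was a member of the cone list. In the cones with under 10 UMIs of the row its level was 66.0 and 43.5 CPM at P12, 18.8 at P17 and 9.34 at P21. Amacrine cells held 6.72 and 12.6 CPM at P12, 14.6 at P17 and 6.25 at P21. The cut is made on the row's own counts, in libraries of unlike depth, so it cannot show whether the level in those cones changed with age.

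Row 27062 was the reverse case, a row of rods found in some cones. Rods had 6777 CPM of it at P17 and 25943 at P21, and cones 291 and 257. It had a UMI in 22.8% of P21 cones, beside 19.6% of P21 bipolar cells and 17.3% of P21 amacrine cells. At P17 it had a UMI in 11.1% of cones, beside 1.96% of bipolar cells and 2.35% of amacrine cells, so cones stood further above the other types at P17 than at P21. It had at least 10 UMIs in 11 P17 cones and 6 P21 cones, with up to 98 and 176 UMIs in a single cone. Rods at P21 had a median of 48. In the 9 P17 cones with at least 10 UMIs of row 13745, row 27062 stood at 3687 CPM, against 86.0 in the other P17 cones, and in the 3 such cones at P21 it stood at 20453 against 148 CPM. In the P12 libraries the cones chosen this way held less of it, with 338 CPM (38 UMIs over 15 cones) against 53.0 in P12a and 591 against 30.0 in P12b. The 9 P17 cones held row 3428 at 3336 against 3573 CPM, row 30767 at 2705 against 1214 and the cone list at 30648.5 against 24389.9. In the 3 P21 cones these were 13635 against 21788, 9713 against 8338 and 52440 against 59505 CPM. Whether the barcodes chosen this way are single cells was not tested.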

How the data were processed

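The authors' deposited UMI counts per gene and cell (whole numbers, not normalized) and the cell table were used. Per the study's methods, reads were processed with Cell Ranger 3.1.0 (on HiC_Itri_2, joined with aggr) and cells in Seurat 4.0.4, and types were named cluster by cluster from marker genes. The submitters' processing notes also list GRCm38. For cell minima, doublet removal and depth equalisation, the steps taken were not given in the sources used here. There were 34181 matrix rows and 30265 names with no row numbers. Embedding coordinates were not used.

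Members and lists were chosen with earlier results of these data known. All deposited cells were kept, and no doublet caller was run. Of held-out late cones, 98.4% lay nearest the cone mean profile in a check of the cell order (6.83% of cells with types shuffled). Counts were summed per library and type with at least 10 cells. The test was that of edgeR 4.0.16 under R 4.3.3 (filterByExpr, TMM, glmQLFit, glmQLFTest, Benjamini-Hochberg adjusted p below 0.05), with DESeq2 1.42.0 as an alternative, and the rest was computed in Python 3.11.15. The study tested single cells instead. SE is the log2 change divided by the square root of F. CPM are UMIs per 1e+06 UMIs of a sum, without TMM scaling. The counts and shares of rows with both late libraries above or below both P12 libraries used TMM-scaled values. The choice of named rows used unscaled CPM. In simulated counts, the late against P12 cone fit recovered 192 of 200 rows changed 4-fold, with 10 false calls among 12058 rows. The simulation gave every row the same spread, and gave P17 and P21 the same mean. It therefore cannot show how many changes the fit finds where P17 and P21 differ, as they do in these cones. Named rows were, per comparison, the 2 largest changes in each direction among called rows whose libraries did not overlap and that had at least 50 CPM in the higher group. For P21 beside P17 and for cones beside other types they were the 2 largest ratios at the same minimum and at least 20 UMIs over both sums, for variation the 2 most variable at P17, and for a list its highest row at P8. Because nothing says whether the P12 libraries came from separate animals, p-values measure the spread between these libraries, which may be technical. Intervals cover counting error only. A count at or under 3 UMIs was set to 3 for counts of rows past a fold.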

Additional observations from a re-analysis of the deposited data

Results flagged for a closer look

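The change with age in cones minus that in bipolar cells passed the edgeR test of the difference itself in 4 of the rows named above. On the log2 scale the difference was 4.32 for row 31191, 2.05 for row 9802, -2.25 for row 20050 and -2.19 for row 11800. Each call was lost without either P12 library, where edgeR's adjusted p was between 0.212 and 0.753. The differences themselves moved little without P12a or P12b (4.30 and 4.32 for row 31191, 1.98 and 2.11 for row 9802, -2.34 and -2.16 for row 20050, -2.42 and -1.93 for row 11800). The calls of rows 20050 and 11800 were also lost without cells of high UMI count (adjusted p = 0.0828 for both). The groups hold 2 libraries at most, so none could be searched for a library that stands apart.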

How the results depend on the processing

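No paired analysis was possible because the P12 samples are numbered 1 and 2 while P17 and P21 have 1 sample each, and the cell names do not carry the numbers. For late against P12 cones the count of 3 calls became 154 with DESeq2, 334 without the filter on low counts, 5 with at least 50 counts in each sum of an age group, 387 with postnatal day as a continuous covariate and 13 with P8 cones added. Leaving out each library gave from 94 calls (without P21) to 1707 (without P17), with 139 without P12a and 155 without P12b. The P21 count of 1707 became 634 with DESeq2 and 0 without the filter. Against bipolar cells the interaction count of 7 became 696 without the filter and 3 without cells above 2 times the median UMI count, and ranged from 0 to 2270 with each library left out. Against amacrine cells 0 became 736 and 1, with a range from 0 to 2917. The 2890 rows past 2-fold between P21 and P17 became 695 past 4-fold and 1831 with at least 50 UMIs. Median genes per cone became 942 and 917 after thinning, cone shares 6.94% and 32.8% without cells of high UMI count, and the cone list's median log2 change 3.82 with an 8-fold minimum. Fewer samples, rows or cells enter several of these by construction, and otherwise the cause was not tested. Of the 11 rows tested under these alternatives (3 of the joint comparison, 4 of P21 alone and 4 of the interaction), none changed direction. Row 17804 missed the threshold in 2 of 13 alternatives, rows 33363 and 26625 in none. With 1 library per late age, depth and replication limit each difference between P17 and P21.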
